A study of Homo sapiens with 6 samples.

Results

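The genes of the core autophagy machinery and of the autophagy receptors were followed in KG1a cells given 7l. The set holds 36 named genes, of 20046 genes named on the array, and a probe was taken as theirs where the platform table gives exactly that symbol. All 36 genes were found, on 55 of the 47322 probes. KG1a cells are an established human line from acute myeloid leukaemia and keep the immature, CD34-positive state. The 3 treated arrays hold KG1a cells exposed to 7l, a compound known here only by its code name, at 2 µM for 24 h, and the 3 control arrays hold KG1a cells labelled only as control. Their vehicle and time in culture are not stated in the labels. The titles number the arrays 1 to 3 in each group, whereas the description field reads replicate 1 for every control array and replicate 2 for every 7l array. Whether arrays of a group came from separate cultures is not stated. The p-values therefore set each difference between groups only against the spread among these arrays, which may be technical. All values come from 1 cell line.

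Autophagy encloses cytoplasm in a double membrane and carries it to the lysosome. The ULK1 kinase complex starts the process, a PI3-kinase complex around beclin 1 marks the growing membrane with a lipid that WIPI proteins read, and ATG2, ATG9 and VMP1 help to supply membrane. An ubiquitin-like conjugation system then attaches proteins of the ATG8 family (the LC3 and GABARAP proteins) to the membrane, where receptors that bind cargo dock, and the SNARE protein syntaxin 17 serves the fusion with the lysosome. Much of this is regulated at the protein level, so that transcript levels do not give autophagic flux, which was not measured here.

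Expression was read as Illumina probe intensity, quoted below on the log2 scale with a floor of 0 (an intensity of 1). A background level of log2 2.46 was set at the 95th percentile of 564 probes whose genes (taste and olfactory receptors, hair keratin-associated proteins) have no known use in blood cells. The median linear probe intensity was 4.95 on the first 7l array, under the background level, which is 5.49 on the linear scale. Across the 6250 genes above log2 6, Pearson's r was 0.992 to 0.995 within groups and 0.980 to 0.982 between them. These genes are not independent replicates. Of the 9 KG1a markers, 8 (among them CD34, PTPRC and CD7) lay above the background level on all 6 arrays, and FGFR1 did not. The summed intensity of the 9 was 8043 to 8279 on 7l arrays and 9022 to 9384 on control arrays. Of 5 mature T cell markers CD3D lay above the background level on all arrays and CD3E on none. Their sum was 1771 to 2114 on 7l arrays and 3087 to 3169 on control arrays. Of the markers measured, 0 of 4 erythroid, 0 of 4 epithelial, 1 of 6 mature myeloid, 1 of 3 mature B cell and 2 of 4 stromal genes lay above it on all arrays, and the summed B cell markers were 15.6 to 31.5 on 7l arrays and 32.4 to 36.5 on control arrays. The part of these marker shifts in the results below was not tested.

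With 7l, 1 autophagy gene of the set passed the test. MAP1LC3B, which encodes the LC3B protein that coats the autophagosome membrane, rose 1.54-fold. The intensity filter, at log2 1.76, lies under the background level of 2.46, so a tested gene need not be above background. A probe above background on all 6 arrays was found for 31 of the 36 members. Of the 34 members past the filter, 1 was called higher and 0 lower (limma, adjusted p under 0.05), where 1.22% of the 12334 genes tested were called higher and 1.16% lower. At an unadjusted p under 0.05 there were 5 higher and 1 lower, against 10.8% and 9.72% of all genes. The 3 arrays of 7l lay above all 3 control arrays for 6 members and below them for 2, and 15.1% and 13.8% of all genes tested did so, and 28.9% in either direction. The members were chosen with earlier results of these data known. Their counts of calls and of groups without overlap are near this background, with 23.5% of members apart in either direction. Their median log2 change was 0.13, beside 0.01 over all genes tested, and 23 changes were positive and 11 negative, where 51.1% of all genes had a positive change. The standard errors of the log2 changes ran from 0.07 to 1.35. The 95% interval lay within a 2-fold change in either direction for 28 members and within a 1.5-fold change for 20. It reached further for ATG13, ATG5, NBR1, AMBRA1, PIK3R4 and GABARAP, all dim.

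The MAP1LC3B call was lost without any 1 of the 6 arrays, and the number of calls depended on how the fit shares variance between genes. With a prior that follows intensity and resists outliers (trended and robust), 5 members were called higher and 1 lower, against 7.21% and 6.59% of all genes tested.

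**Figure D1:**
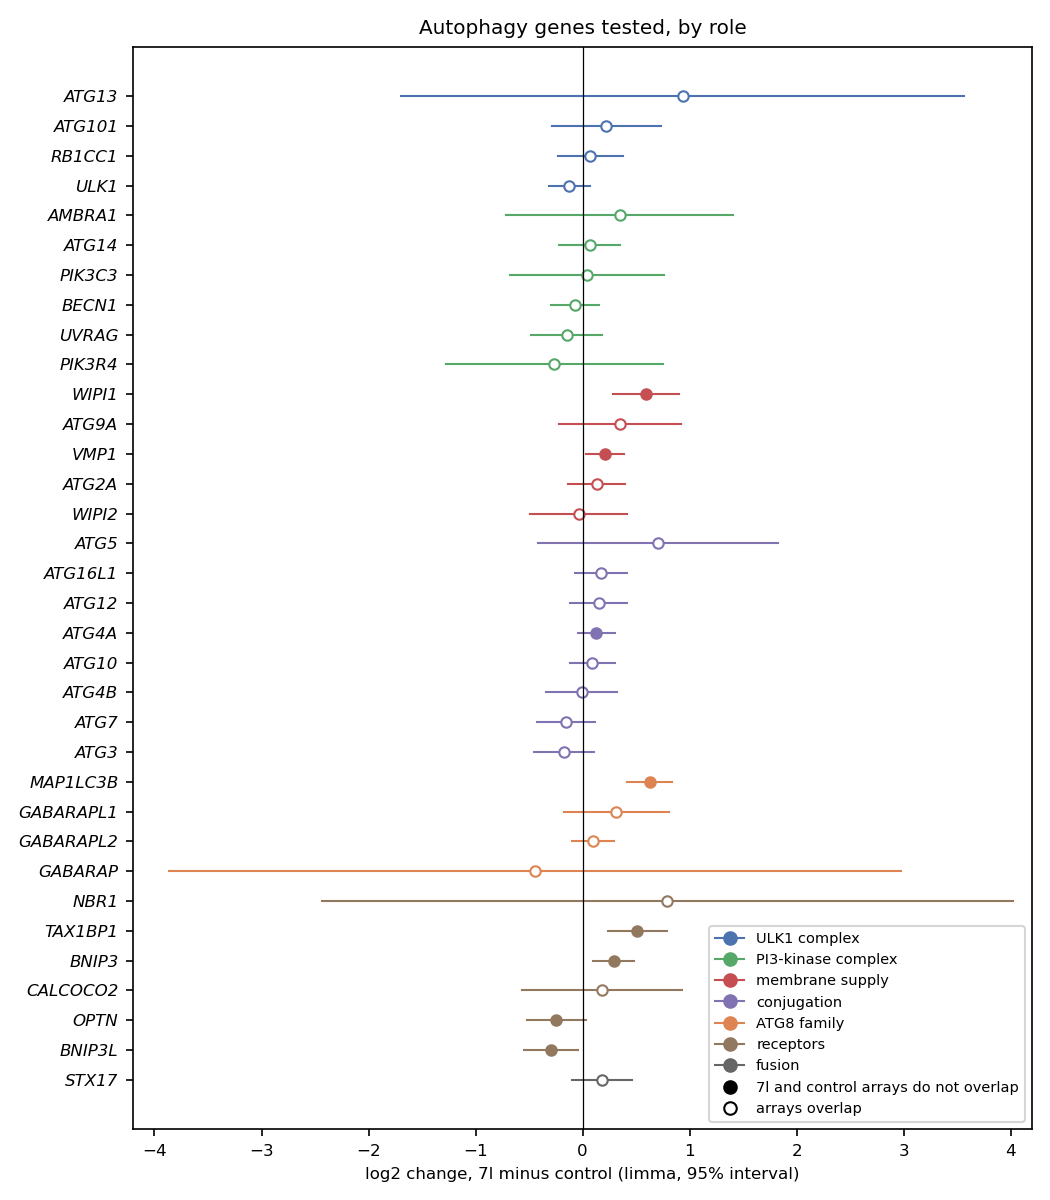
Change in log2 intensity (7l minus control, horizontal axis) of the 34 tested autophagy genes, down the page by role, with the 95% interval of the limma fit; filled points mark genes whose 3 arrays of 7l and 3 control arrays do not overlap. Most genes sit near 0, MAP1LC3B, WIPI1 and TAX1BP1 lie at 0.63, 0.59 and 0.51, and the widest intervals belong to dim genes such as GABARAP and NBR1.

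Among the ULK1 complex, the kinase pair and scaffolds that start autophagosome formation, 0 of the 4 tested genes passed (1.22% of all genes were called higher and 1.16% lower) and 0 had groups that did not overlap, where 28.9% of all genes did. With 4 genes these counts do not set the complex apart. ULK1, the kinase itself, measured 9.45, 9.53 and 9.59 in 7l cells and 9.57, 9.69 and 9.67 in control cells (log2 intensity), a change of -0.13 ± 0.08 (SE). Its second bright probe gave -0.08, so both probes lay slightly below 0, and the 95% interval of the first ran from -0.32 to 0.07. RB1CC1, the scaffold also called FIP200, changed by 0.07 ± 0.12 and ATG101 by 0.22 ± 0.20. ATG13, an adaptor of the complex, rested on 1 dim probe that sat at the floor on the third control array, and its change of 0.93 ± 1.04 has an interval from -1.70 to 3.56. ULK2, the sister kinase, lay under the intensity filter, at 0.77, 3.24 and 0.00 in 7l cells and 2.08, 2.35 and 0.00 in control cells, and was not tested.

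The PI3-kinase complex was also without a called gene, with 0 of 6 past the threshold and a median log2 change of -0.01. Over all genes 1.22% were called higher and 1.16% lower, so with 6 genes this count does not set the complex apart. BECN1 (beclin 1) had a log2 change of -0.07 ± 0.09 and ATG14, which directs the complex to autophagy, one of 0.07 ± 0.11. UVRAG, which takes the place of ATG14 in the endosomal form of the complex, had -0.15 ± 0.13 on its bright probe and 0.25 on a dim one, so its probes differed in sign. The lipid kinase PIK3C3 had 0.04 ± 0.28 and its regulatory subunit PIK3R4 -0.26 ± 0.40. AMBRA1, a regulator of beclin 1, had 0.35 ± 0.42, with 4.75 on the third 7l array and 3.39 and 3.40 on the other 7l arrays, beside 3.38, 3.78 and 3.35 on control arrays (log2 intensity).

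Of the members that supply membrane or read its lipid mark 0 of 5 passed the test (1.22% of all genes were called higher and 1.16% lower). Of their changes 4 of 5 were positive (51.1% of all genes), and 2 genes had higher groups that did not overlap (15.1% of all genes). WIPI1, a reader of the lipid mark, measured 5.91, 5.54 and 5.55 in 7l cells and 5.11, 5.06 and 5.04 in control cells (log2 intensity). Every 7l array lay above every control array, and the first 7l array stood highest. The change was 0.59 ± 0.12, or 1.51-fold (limma adjusted p = 0.0792, and 0.0198 with the trended and robust prior). With an offset of 16 the change of WIPI1 was smaller, at 0.43 (limma adjusted p = 0.0478). VMP1, a membrane protein of the endoplasmic reticulum, measured 9.36, 9.41 and 9.33 in 7l cells and 9.11, 9.23 and 9.14 in control cells. This was a small difference of 0.21 ± 0.07 without overlap (adjusted p = 0.186, and 0.0461 with the trended and robust prior). WIPI2, the other WIPI protein of the set, had a change of -0.04 ± 0.18 and ATG2A, a lipid transfer protein, of 0.13 ± 0.11.

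ATG9A, the lipid scramblase that travels on vesicles, depended on the probe. Its brightest probe measured 6.92, 6.78 and 6.66 in 7l cells and 6.32, 6.89 and 6.10 in control cells, where the second control array lay within the 7l range (change 0.35 ± 0.23). Its other bright probe measured 6.37, 6.43 and 6.28 in 7l cells and 5.87, 5.96 and 5.71 in control cells, with no overlap and a change of 0.51. With every probe fitted singly that probe had an adjusted p of 0.0825 by limma, and of 0.00795 with the trended and robust prior, under which 6.19% of probes were called higher. The third ATG9A probe was at the floor on all 6 arrays. These probe values are given after they were seen.

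The conjugation genes, which attach and trim ATG8 proteins, had 0 of 8 past the threshold and a median log2 change of 0.11. With 1.22% of all genes called higher and 1.16% lower, a count of 0 in 8 genes does not set them apart. ATG3, the E2-like enzyme for LC3, had a change of -0.17 ± 0.11, the E1-like ATG7 of -0.15 ± 0.11, ATG10 of 0.09 ± 0.08, ATG12 of 0.15 ± 0.11 and ATG16L1 of 0.17 ± 0.10. ATG5, the partner of ATG12, was dim and noisy at 0.70 ± 0.44 (0.34 with an offset of 16). The protease ATG4B had -0.01 ± 0.13. ATG4A, a second protease of LC3 and GABARAP proteins, was apart between groups on both of its bright probes, but by different amounts. The brightest probe measured 6.31, 6.25 and 6.25 in 7l cells and 6.21, 6.13 and 6.10 in control cells, a change of 0.13 ± 0.07. The second measured 6.33, 6.35 and 6.06 in 7l cells and 5.60, 5.89 and 5.55 in control cells, a change of 0.57 (adjusted p = 0.123 with probes fitted singly, and 0.00626 with the trended and robust prior). The choice of the brightest probe therefore gives ATG4A a change of 0.13 and the second probe one of 0.57. Its remaining probe, dim and under the filter, gave -0.66, and with all 3 averaged the change was 0.01 (limma adjusted p = 0.987).

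**Figure D2:**
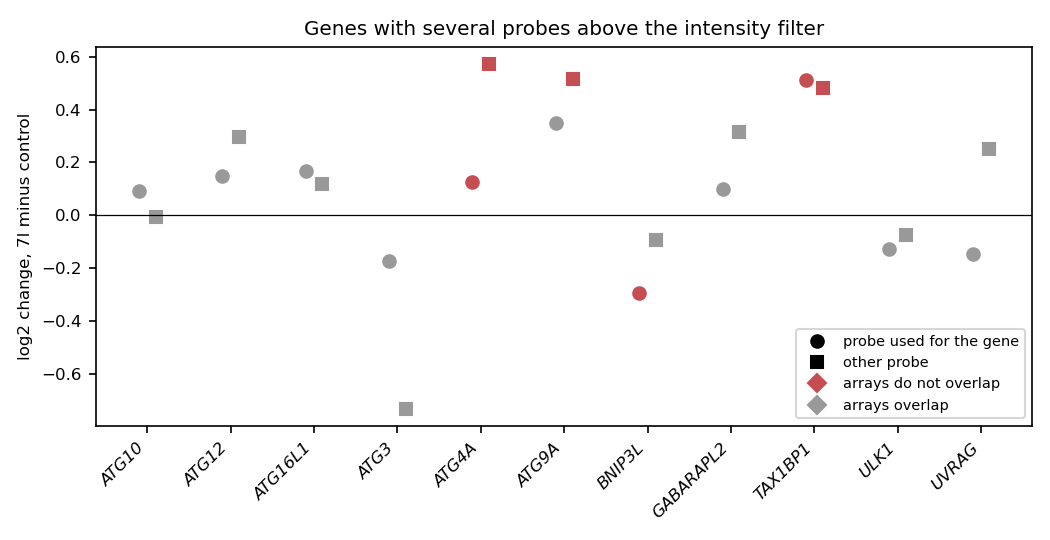
Change in log2 intensity (7l minus control, vertical axis) of each probe for the 11 member genes with more than 1 probe above the intensity filter; circles are the probe used for the gene, squares the others, and red marks probes whose arrays do not overlap between groups. The probes of TAX1BP1 lie together at 0.51 and 0.48, those of ATG4A are spread between 0.13 and 0.57, and ATG10 and UVRAG have probes of both signs.

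In the ATG8 family, MAP1LC3B measured 7.54, 7.33 and 7.52 in 7l cells and 6.85, 6.84 and 6.82 in control cells (log2 intensity). The 3 control arrays lay within a narrow band and each 7l array well above it, as the plot of arrays by gene shows. Its mean was 7.46 ± 0.11 in 7l cells and 6.84 ± 0.02 in control cells (SD, n = 3 each), and the fitted change was 0.63 ± 0.08 (SE, adjusted p = 0.0364 by limma). Without any 1 of the 6 arrays, 7l or control, the change was 0.59 to 0.69 and the adjusted p 0.0756 to 0.136, so the call was lost without each of them. MAP1LC3B has 1 probe on the array. Its near-identical copy MAP1LC3B2 measured 0.00, 2.76 and 2.06 in 7l cells and 2.67, 2.11 and 1.20 in control cells, about the level of unexpressed genes, and signal shared between the copies cannot be told apart.

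The other ATG8 genes did not pass. GABARAPL2 (GATE-16) measured 10.26, 10.26 and 10.32 in 7l cells and 10.27, 10.20 and 10.08 in control cells, with overlap and a change of 0.10 ± 0.08. A second probe past the filter gave 0.31, both probes averaged gave 0.21, and without the third control array the first probe gave 0.05. GABARAPL1 measured 4.98, 5.34 and 5.70 in 7l cells and 5.05, 5.09 and 4.94 in control cells, where 2 of the 7l arrays exceeded all controls (0.31 ± 0.19, adjusted p = 0.434). Its change was 0.13 without the third 7l array and 0.49 without the first. GABARAP measured 3.85, 4.67 and 0.00 in 7l cells and 4.03, 2.21 and 3.62 in control cells. The third 7l array sat at the floor, and without it the change of -0.44 ± 1.35 became 0.98, so that 1 array sets its sign. MAP1LC3A has 3 probes, all under the filter and at the floor on all 3 arrays of 7l. On control arrays its brightest probe measured 0.00, 2.91 and 2.57, with 2 of the 3 above the background level of 2.46. The control mean of 1.83 lay under that level, so no fold is given.

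Of the receptors 0 passed the test, where 1.22% of all genes tested were called higher and 1.16% lower. Groups did not overlap for 4 of the 6 receptors, 2 in each direction, against 28.9% of all genes tested. With 6 genes these counts do not set the receptors apart. TAX1BP1, a receptor that binds ubiquitin and LC3 proteins, measured 9.47, 9.19 and 9.35 in 7l cells and 8.95, 8.79 and 8.73 in control cells (log2 intensity). The change was 0.51 ± 0.11, or 1.42-fold (limma adjusted p = 0.0853, and 8.13e-06 with the trended and robust prior). A second probe gave 9.23, 9.33 and 9.33 in 7l cells and 8.74, 8.71 and 8.99 in control cells, a change of 0.48, so 2 probes show the same separation. With the probes of each gene averaged, TAX1BP1 had a change of 0.50 and an adjusted p of 0.0486, which puts it past the threshold.

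The mitophagy receptors BNIP3 and BNIP3L (NIX), related proteins of the outer mitochondrial membrane, lay on opposite sides of 0. BNIP3 measured 7.63, 7.53 and 7.66 in 7l cells and 7.32, 7.25 and 7.38 in control cells, a change of 0.29 ± 0.08 (adjusted p = 0.121, and 0.0288 with the trended and robust prior). BNIP3L measured 7.09, 6.93 and 7.02 in 7l cells and 7.40, 7.15 and 7.37 in control cells, a change of -0.29 ± 0.10 (adjusted p = 0.199, and 0.0479 with the trended and robust prior). Neither gene had overlapping groups, and a second, dim BNIP3L probe gave -0.09 with overlap. The difference between the 2 genes' changes was not tested. OPTN (optineurin), a ubiquitin-binding receptor of mitophagy, measured 7.55, 7.27 and 7.51 in 7l cells and 7.65, 7.62 and 7.79 in control cells, all 7l arrays below the controls (-0.25 ± 0.11, adjusted p = 0.286, and a change of -0.16 without the second 7l array). CALCOCO2 (NDP52), a receptor known from the autophagy of bacteria, had 0.18 ± 0.30. NBR1, a further ubiquitin-binding receptor, was at background on both its probes on some arrays of each group (0.79 ± 1.27). STX17, the fusion SNARE, had 0.18 ± 0.11, with 5.13, 4.96 and 4.76 in 7l cells and 4.78, 4.76 and 4.77 in control cells, so that 1 of the 7l arrays lay at the control level.

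**Figure D3:**
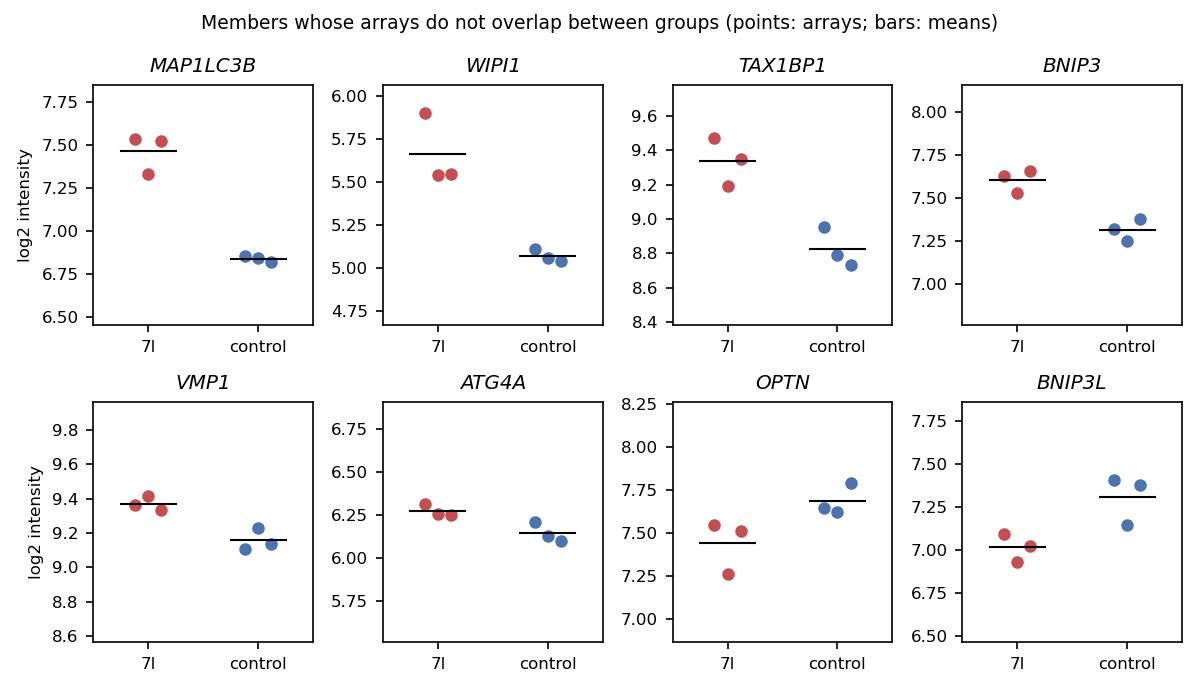
Log2 intensity (vertical axis, each panel spanning the same range) on the 3 arrays of 7l (left, red) and the 3 control arrays (right, blue) for the 8 tested members whose groups do not overlap; points are arrays and bars group means. MAP1LC3B, WIPI1, TAX1BP1, BNIP3, VMP1 and ATG4A are higher on every 7l array and OPTN and BNIP3L lower, with the widest gaps in the first 3.

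The upstream sequences of the 3 members with the largest separated changes are shown so that the motif search can be read against their letters. Each line is the 250 bases before the annotated start, 5′ to 3′ along the gene (RefSeq, GRCh38.p14), with motif matches in capitals.
MAP1LC3B, chr16:87392086-87392335, plus strand: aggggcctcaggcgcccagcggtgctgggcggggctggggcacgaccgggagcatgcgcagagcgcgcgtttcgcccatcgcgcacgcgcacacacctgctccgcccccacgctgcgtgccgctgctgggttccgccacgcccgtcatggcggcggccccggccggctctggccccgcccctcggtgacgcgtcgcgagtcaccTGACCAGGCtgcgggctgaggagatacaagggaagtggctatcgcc
WIPI1, chr17:68457497-68457746, minus strand: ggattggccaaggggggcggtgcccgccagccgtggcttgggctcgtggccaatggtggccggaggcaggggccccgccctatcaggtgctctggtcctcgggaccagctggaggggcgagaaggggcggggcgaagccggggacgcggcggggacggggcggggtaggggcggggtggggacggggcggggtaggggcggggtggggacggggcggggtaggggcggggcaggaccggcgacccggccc
TAX1BP1 first start, chr7:27739123-27739372, plus strand: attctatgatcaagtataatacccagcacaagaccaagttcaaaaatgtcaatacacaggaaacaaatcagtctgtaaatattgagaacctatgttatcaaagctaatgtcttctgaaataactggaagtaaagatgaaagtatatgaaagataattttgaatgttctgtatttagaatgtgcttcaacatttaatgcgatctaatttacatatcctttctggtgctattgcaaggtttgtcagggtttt
TAX1BP1 second start, chr7:27739912-27740161, plus strand: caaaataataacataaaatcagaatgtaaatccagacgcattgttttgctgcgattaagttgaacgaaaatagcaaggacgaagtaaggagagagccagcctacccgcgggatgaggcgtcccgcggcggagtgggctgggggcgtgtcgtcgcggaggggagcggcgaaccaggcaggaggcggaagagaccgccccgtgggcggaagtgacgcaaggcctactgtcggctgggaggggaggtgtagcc
The motifs searched on both strands were CACGTG (the E-box at the core of sites read by TFEB and TFE3), TGATGNAA (the CARE element of ATF4) and TGACNNNGC (the antioxidant element of NRF2). Of 35116 upstream RefSeq windows, 6.34% held the E-box, 3.14% the CARE element and 10.9% the antioxidant element. MAP1LC3B held 1 match to the antioxidant element, beginning at position -46 from the start, and WIPI1 and TAX1BP1 held no match to any of the 3. Of the 31 member genes with a window, 3 held the E-box (ATG14, ATG3 and BNIP3), 3 the antioxidant element (ATG101, CALCOCO2 and MAP1LC3B) and 0 the CARE element. A gene was counted if any of its windows matched, whereas the shares are per window, so counts and shares are unlike measures. A match describes letters and not binding, and the absence of one applies to these 250 bases only. The motifs include those of TFE3, ATF4 and NRF2, factors named below after their values were seen. Any link between these factors and the matches was not tested.

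The rest of the pathway was read from 4 lists, of which 58 of 66 genes were tested. In them 3 genes were called higher and 0 lower, against 1.22% and 1.16% of all genes, and 16 lay apart higher and 3 lower, against 15.1% and 13.8%. The lists were chosen with earlier results of these data known, so these counts describe the lists and test nothing about the pathway. CCPG1, a receptor for turnover of the endoplasmic reticulum, measured 9.54, 9.41 and 9.54 in 7l cells and 8.66, 8.54 and 8.66 in control cells and rose by 0.87 ± 0.08 (limma adjusted p = 0.0210). SQSTM1 (p62), the receptor that links ubiquitin to LC3, measured 10.52, 10.39 and 10.64 in 7l cells and 9.79, 9.79 and 9.74 in control cells and rose by 0.74 ± 0.09 (adjusted p = 0.0288). Both encode cargo receptors that are not among the 36 genes, and on both the groups were well apart. DDIT4 (REDD1), a stress-induced inhibitor of mTORC1, measured 8.46, 8.67 and 8.38 in 7l cells and 7.68, 7.85 and 7.76 in control cells and rose by 0.74 ± 0.10 (adjusted p = 0.0392). With every probe fitted singly the adjusted p of DDIT4 was 0.0509, and 2 of the 3 calls were left. Without any 1 of the 6 arrays, the adjusted p of each of CCPG1, SQSTM1 and DDIT4 was above the threshold, at 0.0667 to 0.145.

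By list, the further autophagosome genes had 2 of 21 called and a median log2 change of 0.09, the genes of fusion with the lysosome 0 of 11 and -0.02, the upstream kinases and sensors 1 of 18 and 0.13, and the transcription factors 0 of 8 and 0.30. Over all genes tested 1.22% were called higher and 1.16% lower. No list was tested as a whole, and the lists are small and were chosen with earlier results known. The calls therefore cannot set any list apart. MTOR, the kinase that restrains ULK1, had a log2 change of 0.01 ± 0.10. Among the transcription factors, named after their values were seen, TFE3 had 0.89 ± 0.25 (adjusted p = 0.139), ATF4 0.46 ± 0.08 (adjusted p = 0.0624) and NFE2L2, which encodes NRF2, 0.40 ± 0.07 (adjusted p = 0.0569), each with groups that did not overlap. With the trended and robust prior their adjusted p was 0.00966 for TFE3, 7.06e-07 for ATF4 and 0.000701 for NFE2L2. The change of TFE3, a dim gene, was 0.55 with an offset of 16. The largest change of this list was that of DDIT3, 1.07 ± 0.44, with overlapping groups (limma adjusted p = 0.264). DDIT3 was also dim, and its change was 0.42 with an offset of 16. TFEB and MITF, relatives of TFE3, were not bright enough to test. FOXO3, a further regulator of autophagy genes, had -0.03 ± 0.08.

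**Figure D4:**
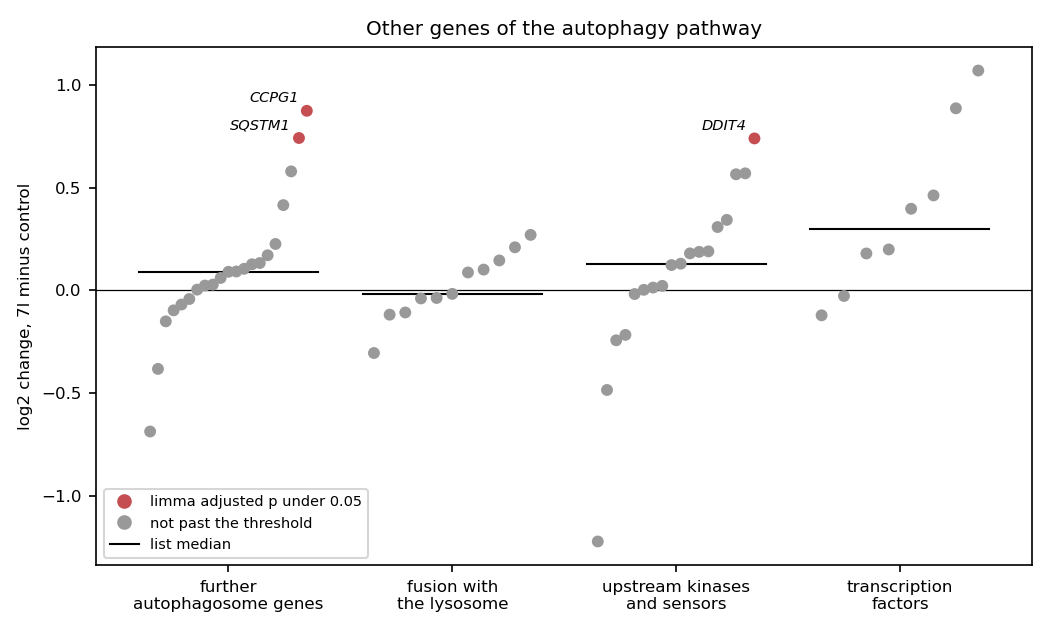
Change in log2 intensity (7l minus control, vertical axis) of the 58 tested genes in the 4 lists of other autophagy pathway genes, sorted within each list; red points passed the limma test and bars are list medians. CCPG1, SQSTM1 and DDIT4 are the called genes, and the median of the transcription factors, 0.30, is the highest of the 4.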

How the data were processed

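The 6 arrays were grouped by their titles, 3 of 7l and 3 of control. The authors deposited 1 table of linear probe intensity, and the sources used here do not state its normalization or software. After sorting, the 6 columns match at 97.8% of ranks (to 0.0001 of the value), the pattern of quantile normalization, and a global shift cannot be seen. Of 47322 probes, 30113 carry 1 gene symbol in the platform table, 8 several and 17201 none. Intensities under 1 were raised to 1 before taking log2. Each gene was read from its brightest probe (highest mean over 6 arrays) and the 12334 genes brighter than the median probe (log2 1.76) were tested. The test was limma 3.58.1 in R 4.3.3 (lmFit, eBayes with default prior of 1.24 degrees of freedom, 4 residual, two-sided) with Benjamini-Hochberg adjustment over all genes. It was also run on simulated data with independent normal noise for each gene and no floor. That run does not cover dim members with arrays at the floor. The number of arrays limits the precision. Members and lists were chosen with earlier results of these data known. All members are named, with array values for the called ones, those apart by at least 0.3 and the ATG8 family; array values of other members were added after they were seen. Alternatives changed normalization, offset, filter, probe rule, prior, weights, block and arrays used. Upstream sequences came from RefSeq. Figures used Python 3.11.15 and matplotlib 3.10.9.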

Additional observations from a re-analysis of the deposited data

How the results depend on the processing

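MAP1LC3B stayed positive in all 16 alternatives and past the threshold in 9 of the 10 that kept every array, the exception being the replicate block. Of members (main count 1 higher, 0 lower), 3 were called higher with an offset of 16, 4 with a filter at the 75th percentile, 2 with probes averaged (median change 0.17; 130 genes higher and 107 lower), and 5 higher and 1 lower with the trended and robust prior. Over all genes (150 higher, 143 lower), the offset gave 388 and 346, the higher filter 717 and 620 and the trended and robust prior 889 and 813, and no filter gave 232 higher. Other pathway genes (3 higher, 0 lower) gave 6 higher with the offset, 9 with the higher filter, and 10 higher and 1 lower with the trended and robust prior. The offset, filter and probe rule can change how many members and genes are tested. Those numbers are not given, so the counts under these settings cannot be compared as shares. With the replicate number as a block, 0 members, 0 pathway genes and 0 genes in either direction were called. Same-numbered arrays deviated together at -0.06, 0.13 and 0.04 (correlation over 6250 genes). Differently numbered arrays were not set beside these values, so they cannot decide whether the numbers pair the samples. Without 1 array each, 0 members were called in either direction, 0 pathway genes in either direction, 6 to 21 genes higher and 0 to 17 lower, and the member median was 0.10 to 0.14. GABARAP turned to 0.0627 with the offset and ran from -1.36 to 0.98 without 1 array each. The cause of these differences was not tested, beyond the fewer arrays or genes that an alternative uses. Dim probes limit ATG13, NBR1 and GABARAP most.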

Other observations

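A second ATG4B probe, under the intensity filter and not part of the gene test, measured 3.61, 1.13 and 2.87 on the 7l arrays and was at the floor of 0.00 on all 3 control arrays (log2 intensity). Of these 7l values 2 lay above the background level of 2.46, and the bright ATG4B probe overlapped between groups. A dim ATG3 probe measured 2.85, 3.46 and 1.06 on 7l arrays and 3.21, 2.95 and 3.41 on control arrays, the third 7l array being the low one. DEPTOR, an mTOR inhibitor, measured 2.88, 1.60 and 2.67 in 7l cells and 3.62, 3.56 and 3.62 in control cells, with no overlap between groups. Its 7l mean of 2.38 lay under the background level, the difference was -0.39 with an offset of 16, and the gene did not pass (limma adjusted p = 0.149).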
